A study of Homo sapiens with 6 samples.

Results

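The core spliceosome protein genes described here encode the Sm and other snRNP proteins (SNRP), the subunits of splicing factors 3A and 3B (SF3A and SF3B), the LSM proteins and the pre-mRNA processing factors (PRPF). They were chosen by symbol alone, as protein-coding genes of the RIP-seq table whose names begin with SNRP, or with SF3A, SF3B, LSM or PRPF followed by a digit. This gave 47 of 58302 genes.

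RNA came from SW480 and DLD-1, established human colorectal cancer cell lines, which the labels give as wild type and untreated in every group. Each line gave 1 Input library, 1 RIP library (RNA pulled down with the protein NAT10 by its antibody) and 1 acRIP library (RNA fragments pulled down by an antibody to the modified base N4-acetylcytidine, ac4C). With 1 library per group the 6 libraries had no replicates, so no test was made and every difference below is one between libraries. No control antibody library was analysed here, and Input was the background for both kinds of immunoprecipitation.

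The spliceosome removes introns from pre-mRNA. Its small nuclear ribonucleoproteins (snRNPs) are built on small nuclear RNAs: the Sm proteins form a ring on U1, U2, U4 and U5, and LSM2 to LSM8 form a related ring on U6. SF3A and SF3B belong to the U2 snRNP and hold the branch point of the intron, and several PRPF proteins belong to the U4/U6.U5 tri-snRNP, from which the catalytic centre is made. NAT10 is the acetyltransferase that writes ac4C, which is best known in rRNA and tRNA. Growing cells of all kinds, colorectal epithelial cells among them, transcribe these genes.

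The sequences below show 3 member mRNAs at their start, where an ac4C peak on the DLD-1 list reached the transcription start site given by RefSeq (GRCh38.p14). Each is shown 5′ to 3′ on the strand of the gene. The peak lists count sites of a 12-base pattern, CNNCNNCNNCNN, and capitals mark the listed site. The SNRPD3 stretch (chr22:24556004-24556033, plus strand) holds a listed site at transcribed bases 15 to 26, inside a peak found on both lists, with an acRIP over Input fold of 6.15 in SW480 and 12.5 in DLD-1. The stretches of SNRPB (chr20:2470760-2470789, minus strand) and SF3B6 (chr2:24076297-24076326, minus strand) are the first 30 transcribed bases under DLD-1 peaks with a fold of 403 and 14.7, and the pattern did not occur in their first 50 transcribed bases. These peaks span several exons, and the lists place them in the CDS (SNRPD3), the 3′UTR (SNRPB) and the 5′UTR (SF3B6).
SNRPD3: cttgactcaCGCCTTCGCCGTagcatcttt
SNRPB: gcatttccggtagcggcggcgggaaatcgg
SF3B6: gttgatgtcctgcatctaacgcggtgtaac
On the transcribed strand, the pattern was in the first 50 bases of 11 of the 49 start windows of members (22.4%), beside 25.7% of all 35116 RefSeq start windows. A match is a description of the letters only.

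Levels are FPKM, fragments counted per length of transcript and per size of library, so that genes of different length can be compared. Of the 47 members, 45 had at least 1 FPKM in both Inputs and entered the ratios, among 10350 protein-coding genes that did. LSM6, a subunit of the U6 ring, fell short with 0.69 FPKM in the Input labelled DLD-1. SNRPN, an Sm protein gene closely related to SNRPB, was listed at 0 in every column. The median level of the 45 was 28.7 FPKM in the Input labelled SW480 and 20.1 in the Input labelled DLD-1, beside 9.96 and 10.4 over all protein-coding genes tested. The reads behind one value ran from 65 (PRPF18, Input labelled SW480) to 27085 (PRPF8, RIP labelled SW480).

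The 7 colorectal epithelial markers examined were at 1 FPKM or more in at least 1 library and 6 of them in every library, with a summed level of 1396 to 3342 FPKM. All 8 blood, endothelial and fibroblast markers stayed under 1 FPKM. By Pearson's r the RIP libraries resembled the Input of the other label more than their own, and by rank only the RIP labelled DLD-1 did. Across the 45 members, Pearson's r of the log2 levels was 0.86 between the RIP and the Input labelled SW480 and 0.89 between this RIP and the Input labelled DLD-1. For the RIP labelled DLD-1, r was 0.85 with its own Input and 0.90 with the other. Spearman's rho was 0.883 with either Input for the RIP labelled SW480. For the RIP labelled DLD-1 it was 0.84 with its own Input and 0.90 with the other. These are correlations across genes of single libraries, which share the genes' overall levels and are given as a description. The groups were kept as labelled. The ratio with exchanged Inputs, in which each RIP is divided by the Input of the other line, is therefore given as well. Whether RIP or Input columns are at odds with their labels cannot be told apart from these columns. For 31 of the 45 members (68.9%) the order of the lines in the Inputs was the opposite of that in the RIP libraries, beside 78.3% of all protein-coding genes tested.

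**Figure D1:**
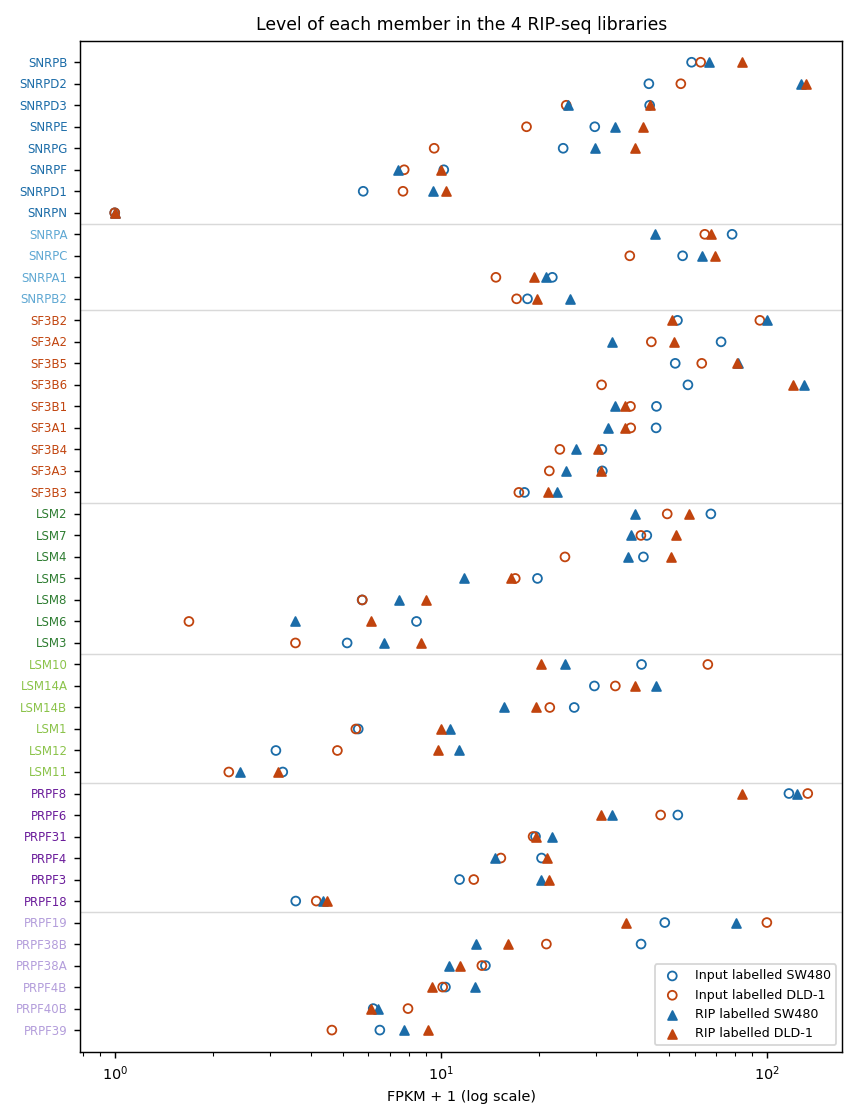
Level of 46 members in the 4 RIP-seq libraries, as FPKM + 1 on a log axis, with 1 point per library and members grouped by role (label colour). Open circles are Input and triangles are RIP, blue for SW480 labels and red for DLD-1 labels. SNRPN sits at 0 FPKM in all 4, and the RIP triangles of SNRPD2 and SF3B6 lie to the right of both their Inputs.

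The genes of 1 complex were unequal in level. Among the Sm ring genes, the Input labelled SW480 ran from 4.78 FPKM for SNRPD1 to 57.7 for SNRPB, a range of 12.1 times. In the Input labelled DLD-1 the same genes ran from 6.66 to 61.6 FPKM, a range of 9.26 times. SNRPB was highest and SNRPD1 lowest in both, although SNRPF (6.72 FPKM) lay within counting error of SNRPD1 in the Input labelled DLD-1. This order is one of FPKM, which divides reads by transcript length. In reads SNRPD1 was not the lowest: it had 343 in the Input labelled SW480, beside 187 for SNRPF and 363 for SNRPG. SNRPD2 (42.4 FPKM) and SNRPD3 (42.7 FPKM) were next to each other in the Input labelled SW480 and differed by less than their counting errors. The U6 ring genes spread 15.9 times and 18.8 times in the same Inputs, over 6 tested members. Of these, LSM3 (4.16 FPKM) and LSM7 (41.8 FPKM) had 232 and 217 reads in the Input labelled SW480. The part of transcript length in these FPKM ranges was not tested. SF3A and SF3B were more even, with a range of 4.18 and 5.76 times over 9 genes, as were the 4 U1 and U2 proteins with 4.43 and 4.62 times. PRPF8, the large protein at the centre of the spliceosome, was the highest member in both Inputs, at 116 and 132 FPKM.

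For each gene the ratio of RIP to Input was taken as log2((RIP FPKM + 1)/(Input FPKM + 1)), on which low genes differ less than their FPKM do. A member was called above or below Input at a 2-fold difference. The errors after ± are standard errors from read counts alone, and they do not include variation between cultures. Above Input were 3 of 45 in SW480 labels and 7 of 45 in DLD-1 labels, beside 17.4% and 16.7% of all protein-coding genes tested. Below Input were 2 of 45 in each label, beside 9.17% and 12.8%. As a share of 45 these counts are 6.67%, 15.6%, 4.44% and 4.44%. The share above Input in DLD-1 labels was close to its background, and the others were lower than theirs. The median ratio of the members was 0.08 in SW480 labels, where all protein-coding genes had a median of 0.18, and 0.35 in DLD-1 labels, where they had 0.07.

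With exchanged Inputs, 4 members were above in SW480 and 3 in DLD-1, beside 10.1% and 10.0% of all genes, and 1 and 2 were below, beside 3.93% and 4.51%. The median of the members then was 0.17 for the RIP labelled SW480, where all genes had 0.11, and 0.00 for the RIP labelled DLD-1, where they had 0.09. Which of both medians was higher thus turned in each label. Over a second table of Inputs with the same label, which came with the acRIP libraries and was scaled to the level of the first, the median of the members was -0.20 in SW480 and 0.04 in DLD-1, beside 0.20 and 0.10 over all genes.

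SNRPD2, SF3B6 and LSM12 were at least 2-fold above Input in both labels, as labelled and with exchanged Inputs, although LSM12 turned below Input over the second table of Inputs (given with LSM12). This is 3 of 45 (6.67%), beside 3.86% of all genes over their own Inputs and 6.15% with exchanged ones. No member was 2-fold below its own Input in both labels, beside 1.26% of all genes, and 1 (LSM10) was with exchanged Inputs, beside 1.97%. The ratio had opposite signs in the 2 labels for 18 of 45 members (40.0%), beside 47.6% of all genes. For 14 of these 18 both ratios lay outside their 95% counting interval around 0. With exchanged Inputs 9 of 45 had opposite signs (20.0%), beside 19.0% of all genes. Across the 45 members the ratios of both labels had a Pearson's r of 0.35 as labelled and 0.83 with exchanged Inputs, and a Spearman's rho of 0.36 and 0.84. Over all protein-coding genes r was -0.12 and 0.81.

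**Figure D2:**
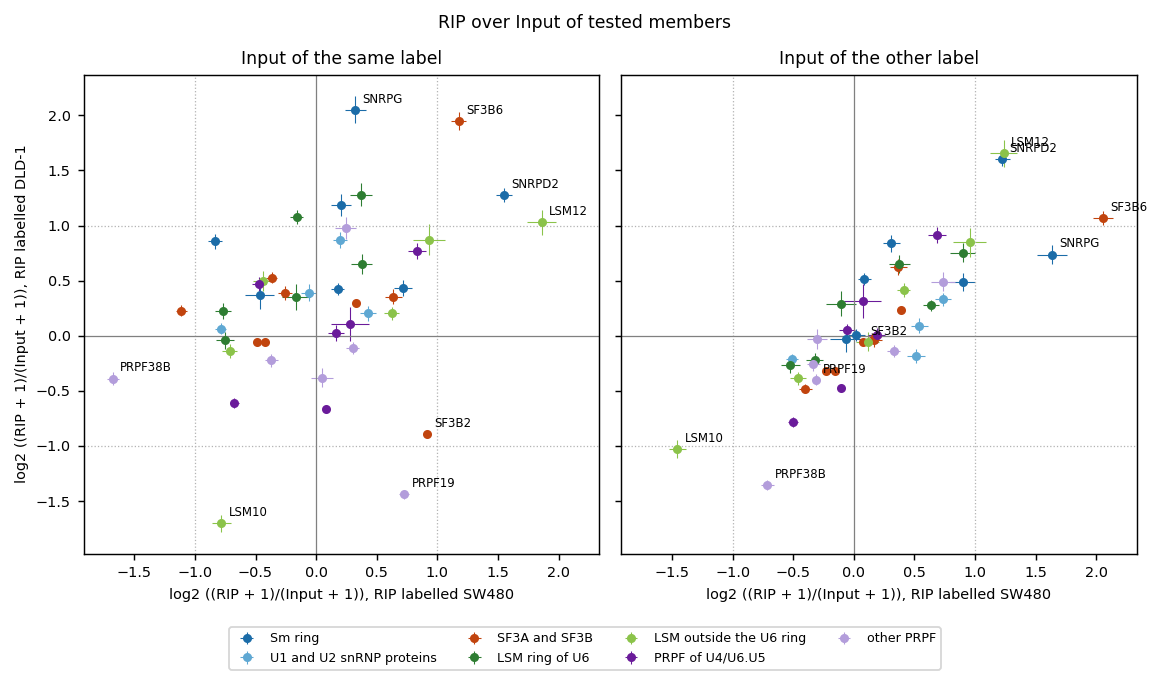
log2 RIP over Input of 44 tested members, with the RIP labelled SW480 on the x axis and the RIP labelled DLD-1 on the y axis. Left, over the Input of the same label, and right, with exchanged Inputs. Bars are 1 standard error from read counts and dotted lines mark 2-fold. SNRPD2, SF3B6 and LSM12 lie past 2-fold on both axes in both panels (LSM12 turned below Input over a second table of Inputs, not plotted). PRPF19 sits in the lower right quadrant only on the left. SF3B2 sits there in both panels, close to 0 on both axes on the right (0.08 and -0.06).

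Among the Sm ring genes, all 7 tested members were above 0 in DLD-1 labels and 5 of 7 in SW480 labels, beside 52.9% and 58.0% of all protein-coding genes. The median ratio was 0.86 in DLD-1 labels and 0.20 in SW480 labels, and 0.51 and 0.31 with exchanged Inputs. SNRPD2, which pairs with SNRPD1 in the ring, had 126 FPKM in the RIP and 42.4 in the Input labelled SW480, and 131 and 53.4 in those labelled DLD-1. Its RIP values were higher than both Inputs. The ratio was 1.55 ± 0.06 in SW480 labels and 1.28 ± 0.06 in DLD-1 labels, and 1.22 and 1.60 with exchanged Inputs.

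SNRPG, the neighbour of SNRPE in the ring, had 28.7 FPKM in the RIP and 22.7 in the Input labelled SW480, and 38.5 and 8.54 in those labelled DLD-1. Its ratio of 2.05 ± 0.12 in DLD-1 labels was the highest of all members there, and in SW480 labels it was 0.32 ± 0.09. With exchanged Inputs the order turned, with 1.64 in SW480 and 0.74 in DLD-1. SNRPG was also the only tested member at least 2-fold higher in the Input labelled SW480 than in the Input labelled DLD-1, beside 6.66% of all genes. It has 20 processed pseudogenes in the table, copies of its mRNA elsewhere in the genome, whose summed level was 31.6 and 21.3 FPKM in the Inputs labelled SW480 and DLD-1 and 5.70 and 9.20 in the RIP libraries. Whether reads were split among these copies was not tested, and the SNRPG value is uncertain for this reason.

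SNRPE had 33.1 FPKM in the RIP and 28.7 in the Input labelled SW480, and 40.6 and 17.3 in those labelled DLD-1. The ratio was 0.20 ± 0.08 and 1.18 ± 0.10, and 0.90 and 0.49 with exchanged Inputs, so it passed 2-fold only in DLD-1 labels with their own Input. SNRPE has 9 processed pseudogenes, and SNRPEP4 among them read 6.17 and 6.26 FPKM in the RIP libraries and 0.49 and 0.53 in the Inputs.

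SNRPD3, the partner of SNRPB in the ring, had 23.5 FPKM in the RIP and 42.7 in the Input labelled SW480, and 42.8 and 23.2 in those labelled DLD-1. Each RIP value lay beside the Input value of the other label. The ratio was -0.83 ± 0.06 in SW480 labels and 0.86 ± 0.07 in DLD-1 labels, and 0.02 and 0.01 with exchanged Inputs. SNRPB, the Sm mRNA with the highest Input FPKM, had 65.5 FPKM in the RIP and 57.7 in the Input labelled SW480. In those labelled DLD-1 it had 82.9 and 61.6. SNRPD1, the lowest tested one in Input FPKM, had 8.49 and 4.78 FPKM, and 9.34 and 6.66. Their ratios lay between 0.18 and 0.72, above Input in both labels without reaching 2-fold, and between 0.09 and 0.84 with exchanged Inputs. Over the second table of Inputs SNRPD1 turned below 0, at -0.03 in SW480 and -0.23 in DLD-1. The remaining tested ring gene, SNRPF, had a ratio of -0.47 and 0.37, and -0.06 and -0.03 with exchanged Inputs.

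The U1 proteins SNRPA and SNRPC and the U2 proteins SNRPA1 and SNRPB2 held no member past 2-fold over the Inputs of the RIP table. Their median was 0.07 in SW480 labels and 0.30 in DLD-1 labels, and 0.53 and -0.05 with exchanged Inputs. Over the second table of Inputs with the same label, SNRPA was past 2-fold below in SW480 (-1.23) and at -0.22 in DLD-1. SNRPA had 44.3 FPKM in the RIP and 77.2 in the Input labelled SW480, and 66.5 and 63.5 in those labelled DLD-1, which gave -0.79 ± 0.05 and 0.07 ± 0.05, and -0.51 and -0.21 with exchanged Inputs. SNRPB2 had 23.8 and 17.4 FPKM, and 18.7 and 16.1, which gave 0.43 ± 0.06 and 0.20 ± 0.07. SNRPC, with 18 processed pseudogenes in the table, had ratios of 0.20 and 0.87, and SNRPA1 of -0.06 and 0.39. Exchanged, SNRPB2 was at 0.54 and 0.09, SNRPC at 0.74 and 0.33, and SNRPA1 turned to 0.52 and -0.18. Over the second table of Inputs SNRPB2 turned below 0 in both labels. It was at -0.45 and -0.77 with the same label, and at -0.43 and -0.78 with the other.

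The 9 SF3A and SF3B genes had a median ratio of -0.26 in SW480 labels and 0.30 in DLD-1 labels, with 4 and 6 members above 0, beside 58.0% and 52.9% of all protein-coding genes. With exchanged Inputs both medians changed sign, to 0.17 and -0.04. SF3B6, the small subunit that sits at the branch point, had 129 FPKM in the RIP and 56.2 in the Input labelled SW480, and 119 and 30.1 in those labelled DLD-1. Both RIP values were at least 2 times either Input. The ratio was 1.18 ± 0.06 and 1.95 ± 0.08, and 2.06 and 1.07 with exchanged Inputs. Over the second-table Inputs it was 1.03 and 1.84 with the same label, and 1.95 and 0.92 with the other, so that the DLD-1 ratio then fell short of 2-fold. SF3B6 has no processed pseudogene of its name in the table.

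SF3A2 had 32.5 FPKM in the RIP and 71.3 in the Input labelled SW480, and 50.8 and 43.2 in those labelled DLD-1. Its ratio of -1.11 ± 0.05 in SW480 labels was past 2-fold below Input, whereas in DLD-1 labels it was 0.23 ± 0.05. With exchanged Inputs it was -0.40 and -0.48. SF3B2 went the other way, with 99.3 and 52.2 FPKM in SW480 labels and 50.2 and 94.1 in DLD-1 labels. Here the RIP of each label lay close to the Input of the other, and the ratio of 0.92 ± 0.03 and -0.89 ± 0.03 became 0.08 and -0.06 with exchanged Inputs. This held only for the Inputs of the RIP table. Over the second table SF3B2 was at 1.65 and 0.02 with the same label, and at 0.996 and 0.68 with the other.

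SF3B3 and SF3B5 were above Input in both labels. SF3B3, the lowest of the list by mean Input, had 21.7 FPKM in the RIP and 17.0 in the Input labelled SW480, and 20.3 and 16.3 in those labelled DLD-1, with a ratio of 0.33 ± 0.03 and 0.30 ± 0.04. SF3B5 had 80.4 and 51.3 FPKM, and 79.7 and 62.1, with 0.64 ± 0.07 and 0.35 ± 0.07. Both stayed above 0 with exchanged Inputs, at 0.39 and 0.24 for SF3B3 and 0.37 and 0.62 for SF3B5. SF3B1, which carries the branch-point pocket and is often mutated in blood cancers, had a ratio of -0.42 and -0.05. SF3A1 and SF3A3 had -0.49 and -0.37 in SW480 labels and -0.06 and 0.53 in DLD-1 labels, and SF3B4 had -0.26 and 0.39. With exchanged Inputs SF3A3 turned to 0.17 and -0.01 and SF3B4 to 0.17 and -0.04, whereas SF3B1 (-0.16 and -0.32) and SF3A1 (-0.23 and -0.32) were below 0 in both.

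In the U6 ring, 2 of 6 tested genes were above 0 in SW480 labels and 5 of 6 in DLD-1 labels, beside 58.0% and 52.9% of all protein-coding genes. The median was -0.16 and 0.50, and 0.13 and 0.29 with exchanged Inputs. LSM3 had 5.68 FPKM in the RIP and 4.16 in the Input labelled SW480, and 7.71 and 2.58 in those labelled DLD-1. Its ratio was 0.37 ± 0.09 and 1.28 ± 0.10, and 0.90 and 0.76 with exchanged Inputs. Over the second table of Inputs LSM3 was at -0.69 and 0.40 with the same label, and at 0.01 and -0.31 with the other. LSM4 had 36.4 and 40.8 FPKM, and 49.7 and 23.0, with -0.16 ± 0.05 and 1.08 ± 0.06. With exchanged Inputs LSM4 was at 0.64 and 0.28, above 0 in both labels but under 2-fold. LSM2, the gene of this ring with the highest Input FPKM, had 38.5 and 66.3 FPKM, and 56.8 and 48.5. Its ratio was -0.77 ± 0.07 and 0.22 ± 0.07, and it was below 0 in both with exchanged Inputs (-0.32 and -0.22).

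LSM5 had 10.8 FPKM in the RIP and 18.8 in the Input labelled SW480, and 15.4 and 15.9 in those labelled DLD-1, with a ratio of -0.75 ± 0.07 and -0.04 ± 0.08. LSM7 and LSM8 had -0.17 and 0.38 in SW480 labels and 0.35 and 0.65 in DLD-1 labels. With exchanged Inputs LSM5 was at -0.52 and -0.27, LSM7 at -0.11 and 0.29 and LSM8 at 0.37 and 0.65. Over the second table of Inputs LSM7 passed 2-fold above in both labels, at 1.18 and 1.37, and in SW480 its direction thereby turned. The untested LSM6 read 2.57 FPKM in the RIP and 7.42 in the Input labelled SW480, and 5.10 and 0.69 in those labelled DLD-1, the last value from 21 reads.

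The LSM proteins outside the ring have other duties. LSM1 replaces LSM8 in a cytoplasmic ring that promotes mRNA decapping, LSM10 and LSM11 belong to the U7 snRNP of histone mRNA processing, and LSM14A and LSM14B are found in P-bodies. LSM10 had 23.0 FPKM in the RIP and 40.3 in the Input labelled SW480, and 19.3 and 64.9 in those labelled DLD-1. Both RIP values were lower than both Inputs. The ratio was -0.78 ± 0.08 and -1.70 ± 0.08, and -1.46 and -1.03 with exchanged Inputs. Over the Inputs of the second table, scaled, the ratio turned to 0.39 in SW480 and stayed below 0 in DLD-1 (-1.33). Its partner LSM11 was the lowest tested member by mean Input, with 1.42 and 2.28 FPKM in SW480 labels and 2.16 and 1.24 in DLD-1 labels, and a ratio of -0.44 ± 0.08 and 0.50 ± 0.09 that turned to 0.11 and -0.05 with exchanged Inputs.

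LSM12 had 10.3 FPKM in the RIP and 2.12 in the Input labelled SW480, and 8.82 and 3.82 in those labelled DLD-1, with a ratio of 1.86 ± 0.12 and 1.03 ± 0.12. In the second table of Inputs LSM12 was much higher, at 10.7 and 13.9 FPKM before scaling. Over these Inputs, scaled, its ratio was -0.56 and -1.18. Its processed pseudogene LSM12P1 read 22.3 and 9.77 FPKM in the RIP and Input labelled SW480 and 17.7 and 12.7 in those labelled DLD-1. LSM12 thus passed 2-fold above Input only with the Inputs of the RIP table. LSM14A had 44.5 and 28.6 FPKM, and 38.5 and 33.3, with 0.62 ± 0.06 and 0.20 ± 0.06. LSM14B and LSM1 had -0.71 and 0.93 in SW480 labels and -0.14 and 0.87 in DLD-1 labels. Exchanged, LSM14A (0.41 and 0.42) and LSM1 (0.96 and 0.85) stayed above 0 and LSM14B (-0.46 and -0.39) below. Over the second table of Inputs LSM1 was at 0.42 and -0.42 with the same label, and at -0.34 and 0.34 with the other.

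The 6 PRPF genes of the tri-snRNP had a median of 0.12 and 0.07, and 0.01 and 0.03 with exchanged Inputs. None passed 2-fold over its own Input of the RIP table. PRPF8 had 123 FPKM in the RIP and 116 in the Input labelled SW480, and 82.9 and 132 in those labelled DLD-1, with a ratio of 0.08 ± 0.02 and -0.67 ± 0.02, and of -0.11 and -0.48 with exchanged Inputs. PRPF18, the least abundant of the 6, had 3.36 and 2.59 FPKM, and 3.47 and 3.15, and its ratios of 0.28 ± 0.15 and 0.11 ± 0.16 lay within the 95% counting interval around 0. PRPF31 is mutated in a form of retinitis pigmentosa, as PRPF3, PRPF6 and PRPF8 also are. It had 20.9 and 18.5 FPKM, and 18.6 and 18.2, with 0.16 ± 0.07 and 0.03 ± 0.07, close to the 0.19 and 0.00 of exchanged Inputs. Over the second table of Inputs with the same label PRPF31 turned to -0.87 and -0.81. PRPF3 was above Input in both labels (0.83 and 0.77) and PRPF6 below in both (-0.67 and -0.61), also with exchanged Inputs (0.69 and 0.91 for PRPF3, -0.50 and -0.78 for PRPF6). Over the second table of Inputs PRPF6 was past 2-fold below in both labels, at -1.36 and -1.18 with the same label and -1.07 and -1.47 with the other. PRPF3 was there at 1.52 and 0.82 with the same label and 0.73 and 1.61 with the other. PRPF4 had -0.47 and 0.47, and -0.06 and 0.05 when exchanged.

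Among the other PRPF genes the median was 0.05 and -0.22, and -0.30 and -0.15 with exchanged Inputs. PRPF19, the ubiquitin ligase of the complex that activates the spliceosome, had 79.4 FPKM in the RIP and 47.6 in the Input labelled SW480, and 35.9 and 98.9 in those labelled DLD-1. Both its high values and both its low values came from opposite labels. The ratio was 0.73 ± 0.04 and -1.44 ± 0.04, the widest gap between labels of any tested member, and -0.31 and -0.40 with exchanged Inputs. PRPF19 was at least 2-fold lower in the Input and at least 2-fold higher in the RIP labelled SW480 than in those labelled DLD-1, the only tested member past 2-fold in either of these, beside 8.95% and 7.99% of all genes. No member was 2-fold lower in the RIP labelled SW480 than in the RIP labelled DLD-1, beside 5.65%.

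PRPF38B had 11.8 FPKM in the RIP and 40.1 in the Input labelled SW480, and 15.1 and 20.1 in those labelled DLD-1. Both RIP values lay under both Inputs. The ratio was -1.68 ± 0.05 and -0.39 ± 0.06, and -0.71 and -1.35 with exchanged Inputs. PRPF39 had 6.71 and 5.50 FPKM, and 8.14 and 3.63, with 0.25 ± 0.09 and 0.98 ± 0.10, and 0.73 and 0.49 when exchanged. PRPF40B, PRPF38A and the kinase PRPF4B lay between -0.38 and 0.30, and between -0.33 and 0.33 with exchanged Inputs.

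Among 34 further spliceosome genes, 1 was above Input in SW480 labels (BUD31, at 2.59) and 2 were below (PHF5A and SNRNP27), and in DLD-1 labels 4 were above (SNRNP40, SMNDC1, CDC40 and PLRG1) and 3 below (SNRNP27, CTNNBL1 and SNRNP200). The background for these counts is the 17.4% above and 9.17% below in SW480 labels and the 16.7% and 12.8% in DLD-1 labels. The median was -0.13 and 0.15, and 0.03 and 0.06 with exchanged Inputs, where BUD31 was at 1.18. SNRNP27, a tri-snRNP protein, was the only 1 of the 34 past 2-fold in the same direction in both labels, with -1.91 and -1.43, and -1.65 and -1.69 when exchanged. The 11 genes of Sm core assembly, the SMN complex and the methylosome that load Sm proteins onto snRNA, had a median of 0.73 and 0.97, and 0.75 and 0.66 with exchanged Inputs. Over the second table of Inputs with the same label this median was 0.85 and 0.36. In each label 5 of 11 were above Input, beside 17.4% and 16.7% of all protein-coding genes, and none was below, beside 9.17% and 12.8%. GEMIN2, PRMT5 and WDR77 were above in both, and PRMT5, the arginine methyltransferase that modifies Sm proteins, had 49.6 FPKM in the RIP and 13.7 in the Input labelled SW480 and 42.8 and 11.6 in those labelled DLD-1. The lists were not set against each other by a test.

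The Inputs of the second table were compared with those of the RIP table as a check. Scaled to the same level (by 1.47 in SW480 and 1.53 in DLD-1), they differed by at least 2-fold for 5 of 45 members in SW480 labels and 3 of 45 in DLD-1 labels. LSM7 and LSM10 were higher in the RIP table in SW480, beside 3.29% of all genes, and LSM7 in DLD-1, beside 3.24%. LSM12, LSM3 and PRPF31 were lower in SW480, beside 2.32%, and LSM12 and LSM1 in DLD-1, beside 2.39%. Over the second-table Inputs 6 members were 2-fold above and 4 below in SW480 labels, beside 19.0% and 9.02% of all genes, and 5 and 4 in DLD-1 labels, beside 17.8% and 12.2%. Between the Inputs themselves LSM12 stood farthest off, at -2.42 and -2.21 on the log2 scale, followed in SW480 by LSM7 at 1.35, in the other direction, and in DLD-1 by LSM1 at -1.29. Between each RIP-table Input and the second-table Input of the same label, the most frequent ratio of values recurred in 5.32% (SW480) and 5.31% (DLD-1) of the genes above 0 in both. Between Inputs of different labels it recurred in 0.506% and 0.767%.

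**Figure D3:**
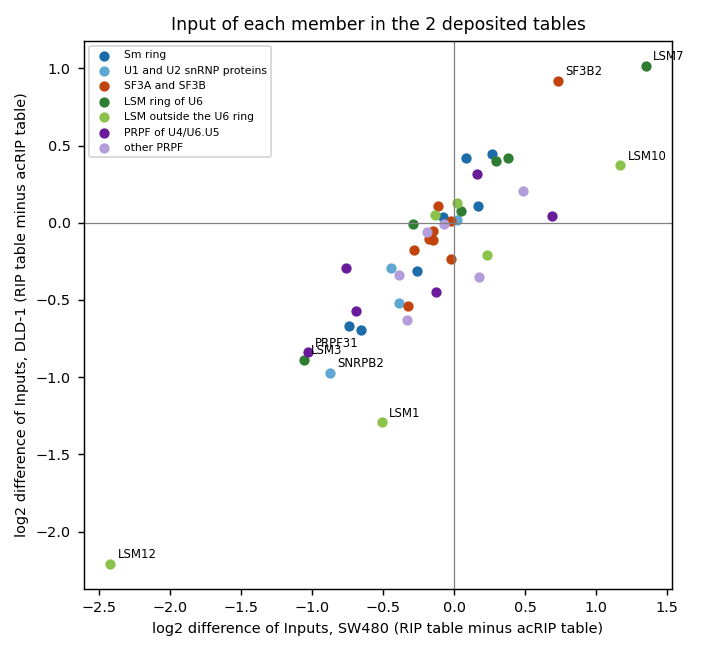
Input of 44 tested members in the RIP table minus the scaled Input in the acRIP table, on the log2 scale, for SW480 labels (x) and DLD-1 labels (y), with 1 point per member coloured by role. Points near the diagonal differ alike in both lines; LSM12 lies at -2.42 and -2.21 and LSM7 at 1.35 and 1.02.

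ac4C peaks were on most of these mRNAs. The SW480 list held 54 peaks on 37 of the 47 members and the DLD-1 list 95 peaks on 43. Of the 45 tested members 36 (80.0%) had a peak in SW480 and 41 (91.1%) in DLD-1, beside 51.1% and 56.8% of all protein-coding genes tested, and 35 (77.8%) had one in both, beside 40.3%. In the list called on the pooled libraries it was 40 of 45 (88.9%), beside 63.6%. These genes were also higher in level than the protein-coding genes at large, by the median Input given above, and across all protein-coding genes the number of peaks went with the mean Input, with a Spearman's rho of 0.34 in SW480 and 0.37 in DLD-1. The part of the level in the share with a peak was not tested.

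With all 47 members counted, 36 had a peak on both lists. SNRPF had one only on the SW480 list, and SNRPA1, LSM6, LSM11, LSM12, PRPF38B and PRPF39 were among those with peaks only on the DLD-1 list. LSM10, PRPF18 and PRPF40B had none on either. By position, 44 of the 54 SW480 peaks (81.5%) and 43 of the 95 DLD-1 peaks (45.3%) overlapped a peak on the other list, where all peaks on protein-coding genes gave 56.0% and 36.2%. When the overlap had to cover 50% of each peak, 31 of each list remained (57.4% and 32.6%). No share over all peaks was computed at this setting, so it has no background. The peaks of members were also longer, with a median of 270 bases in SW480 and 299 in DLD-1, beside 210 and 211 on all protein-coding genes. The part of peak length in the overlap was not tested.

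**Figure D4:**
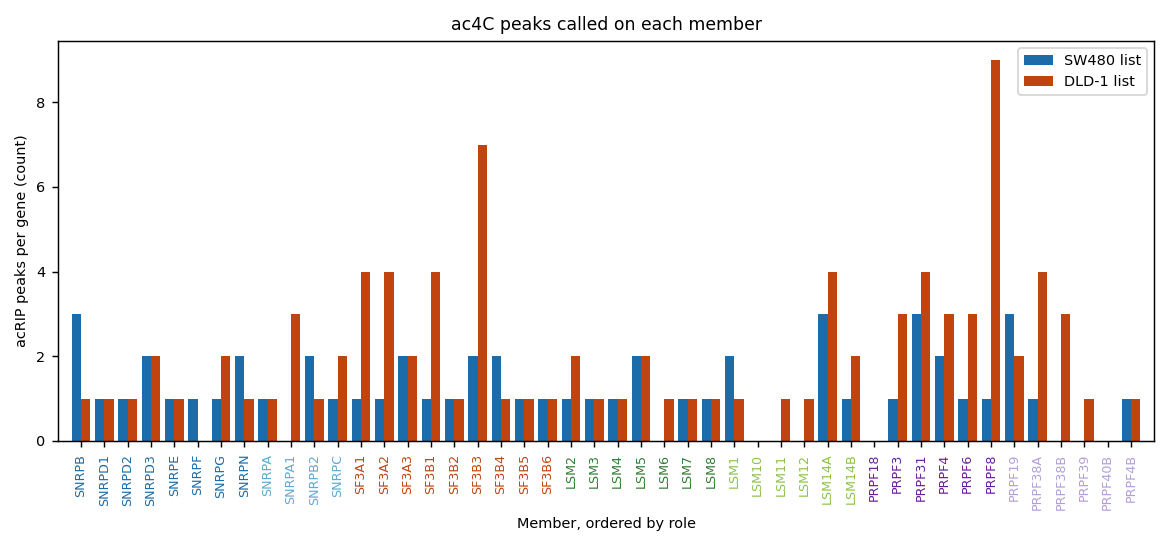
Number of acRIP peaks on each of 46 members in the SW480 list (blue) and the DLD-1 list (red), ordered by role (label colour). PRPF8 has 9 peaks in DLD-1 and 1 in SW480, SF3B3 has 7 and 2, and LSM10, PRPF18 and PRPF40B have none.

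Peaks were listed by their place in the mRNA. In SW480 20 of 54 (37.0%) were listed in a CDS and 25 (46.3%) in a 3′UTR, beside 25.8% and 56.3% of all peaks on protein-coding genes. In DLD-1 54 of 95 (56.8%) were in a CDS and 25 (26.3%) in a 3′UTR, beside 40.0% and 43.2%. The rest were listed as exon, except 1 in a 5′UTR, which was the SF3B6 peak shown at the start. Many spanned introns: 61.1% of the SW480 and 71.6% of the DLD-1 peaks of members were made of more than 1 exon block, beside 28.2% and 41.7%. At least 1 site of the pattern CNNCNNCNNCNN was listed in 32 of 54 (59.3%) and 56 of 95 (58.9%), beside 56.2% and 54.8%.

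PRPF8 carried the most peaks, 9 in DLD-1 against 1 in SW480. The shared one, listed in the CDS near the 3′ end of the gene, had a fold of 632 in SW480 (chr17:1650659-1651229, 420 bases in 2 blocks) and 36.8 in DLD-1, with 5 listed pattern sites in each. SF3B3 had 7 peaks in DLD-1 and 2 in SW480, all in the CDS. LSM14A had 4 and 3, PRPF31 4 and 3, and PRPF19 2 and 3. A relative transcript length was taken as solved reads over FPKM in the RIP labelled SW480, and is known only as far as the solved reads are. Across the 45 tested members the number of DLD-1 peaks went with this length, with a Pearson's r of 0.55 and a Spearman's rho of 0.39. Over all protein-coding genes r was 0.04. The SW480 peaks gave an r of -0.16 and a rho of -0.14 across the same members.

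The 5 shared peaks with the highest smaller fold lay on LSM5, PRPF19, SF3B5, SNRPD3 and LSM4, all listed in 3′UTRs. The LSM5 peak had the same borders in both lists (chr7:32486859-32487457, 599 bases, minus strand), a fold of 333 in SW480 and 255 in DLD-1, and no listed pattern site. On PRPF19 the folds were 159 and 212, on SF3B5 175 and 129, on SNRPD3 125 and 233, and on LSM4 765 and 117. The LSM4 peak held 2 listed sites in SW480 and 3 in DLD-1, and the SNRPD3 peak none. The fold was set by the authors' peak caller for each list on its own, and the order by the smaller fold is a description.

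SF3B6 had 1 peak in each list, and these did not overlap: the SW480 peak was listed in the 3′UTR with a fold of 117 (chr2:24067614-24073661, 390 bases in 3 blocks), and the DLD-1 peak covered the start of the mRNA. SNRPD2, at least 2-fold above all 4 Inputs in both labels, had 1 peak in each list, which overlapped, with a fold of 201 and 58.8. LSM12 had a single peak, in DLD-1, with a fold of 7.55. SNRPN, listed at 0 FPKM in every column, nevertheless carried 2 peaks in SW480 (fold 158 and 213) and 1 in DLD-1 (fold 62.9), and SNURF, which overlaps it, was also listed at 0. The 0 in the FPKM table can therefore not be read as absence of SNRPN mRNA.

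The RIP ratio and the peaks were set side by side. In SW480 labels the median ratio was 0.17 for the 36 tested members with a peak and -0.06 for the 9 without. In DLD-1 labels it was 0.39 for 41 members and -0.14 for 4. Over all protein-coding genes the same medians were 0.21 and 0.14, and 0.20 and -0.12. With exchanged Inputs the members with a peak had 0.17 in SW480 and 0.01 in DLD-1, and those without had 0.11 and -0.03. The ranges overlapped throughout: members with a peak in DLD-1 ran from -1.44 to 2.05, and those without from -1.70 to 0.37. LSM10, below the RIP-table Input in both labels, had no peak, and PRPF18 and PRPF40B, the others without one on either list, had ratios between -0.38 and 0.28.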

How the data were processed

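RNA of SW480 and DLD-1 cells was sequenced as Input, NAT10 RIP and ac4C acRIP, with 1 library per group by the submitters' titles. Per the submitters' processing notes cutadapt 2.5 and HISAT2 2.1.0 were used. The counting tool, its use of strand and the peak caller are not given in the sources used here. The authors deposited FPKM for RIP and Input, and a second table with Inputs of an unnamed unit, read here as FPKM. The authors' quotients of RIP over Input hold their own comparison and were not used. The authors called peaks on GRCh38 per library and on pooled libraries, with a p-value and a log10 FDR score for each. In these deposited lists the fold is the enrichment ratio of acRIP over Input that the authors' caller gave. The authors also made a count of pattern sites in each peak. The deposited FDR score was used at 0.05 as an alternative only.

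The ratio was log2((RIP FPKM + 1)/(Input FPKM + 1)) for genes with at least 1 FPKM in both Inputs (12324 genes, 10350 protein-coding). Whole reads were solved from the FPKM steps, within 0.004 of a whole number, for 23500 of 23515 genes above 0 in at least 2 columns, and gave the standard errors. These are counting errors only, since copies made by PCR are not independent. Solved reads summed to 25771427 (RIP) and 11522896 (Input) under SW480 labels, and to 21232847 and 10915271 under DLD-1 labels. Multiples of these whole numbers would give the same FPKM, so they are lower limits of the reads. The depth of the acRIP libraries is unknown. The solver was tested on simulated data. Peaks were shared at an overlap of 1 base on the same strand.

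The values of 1 member are not reported here, although it is in the counts and medians. The members and lists were chosen with earlier results of these data known. Values in every library are given for members with the highest and lowest mean Input of each role list, those past 2-fold, those with the most peaks or the 5 strongest shared peaks, and those whose call changed over the Input of the other label. RefSeq (GRCh38.p14) gave a position for 46 members and a start window, 250 bases before to 50 after the start, for 38. Of 601 listed pattern sites inside such windows, 584 held the pattern in the RefSeq sequence. Python 3.11.15, pandas 2.3.3, numpy 2.4.6 and matplotlib 3.10.9 were used. Alternatives were the Input of the other label, the Inputs of the second table, a pseudocount of 0.1, centring and peak thresholds.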

Additional observations from a re-analysis of the deposited data

Results flagged for a closer look

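The following RIP over Input results had opposite signs under SW480 and DLD-1 labels, and with 1 library per group the difference was not tested. The difference of the log2 ratio (SW480 minus DLD-1) was 2.17 for PRPF19, 1.81 for SF3B2 and 0.75 for PRPF8. It was -1.69 for SNRPD3, -1.34 for SF3A2, -1.24 for LSM4, -0.99 for LSM2, -0.93 for LSM11 and -0.85 for SNRPA. For the role lists, the median differed by -0.56 over SF3A and SF3B, by -0.59 over all LSM genes and by 0.19 over all PRPF genes. When each RIP was divided by the Input of the other line, 9 of 45 members had opposite signs in place of 18. The medians in SW480 and DLD-1 then were 0.17 and -0.04 over SF3A and SF3B, 0.24 and 0.29 over all LSM genes and -0.06 and -0.14 over all PRPF genes, so that the signs still differed for SF3A and SF3B, in the other order, and no longer for LSM and PRPF.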

How the results depend on the processing

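No paired analysis was possible because each group had 1 library and the labels give no replicate numbers, so no replicate could be left out either. Of 68 alternative medians over all members or over a role list, 16 had the opposite sign to the value given. Among them, in SW480, were -0.20 over all members and -0.48 over all PRPF genes (second table, same label) and 0.17 over SF3A and SF3B and 0.24 over all LSM genes (exchanged Inputs). Over the Input of the other label, members below Input in SW480 labels were 1, members above in DLD-1 labels were 3, and the DLD-1 median was 0.0038. Over the scaled Input of the second table with the same label, 6 were above and 4 below in SW480, 4 were below in DLD-1, the SF3A and SF3B median in SW480 was -0.51, and the DLD-1 median was 0.038. Over the second-table Input of the other label, 3 were above in DLD-1, and the DLD-1 medians were -0.061 over all members, 0.17 over the Sm ring and -0.30 over SF3A and SF3B. Without the members that have processed pseudogenes, an alternative chosen after seeing the data that left 33, 1 was above in SW480, 2 were above in DLD-1 and 1 below. For this setting and the second-table Input of the other label, no share over all protein-coding genes was computed, so these counts have no background. Some calls changed sign: LSM12 over the second table with the same label (-0.56 in SW480, -1.18 in DLD-1) and with the other label (-0.97 and -0.77), and, in DLD-1 over the second table with the other label, SNRPE (-0.17), LSM3 (-0.31), LSM10 (0.14) and PRPF19 (0.085). The cause was not tested. SNRPD2 was at least 2-fold above every Input in both labels, and SF3B6 was so except in DLD-1 over the second-table Input of the other label (0.92). The pseudocount of 0.1 moved 4 single-gene values beyond their counting error. With 1 library per group the spread between cultures is unknown.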
